A study of Mus musculus with 6 samples.

Results

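The 10 genes described here, Fos, Fosb, Jun, Junb, Jund, Egr1, Atf3, Klf6, Ier2 and Dusp1, are immediate early response genes, and they are 10 of the 17463 genes in the deposited tables. They were found by their gene symbols, and they were chosen from the genes of this kind with their values in these 6 libraries known. Their treatment difference and their values by replicate number are therefore given as a description, and counts of members called by the fits over all genes are printed for orientation only. Erythroblasts without TER119, a surface protein gained as erythroid cells mature, were purified from fetal liver of C57BL/6J mouse embryos and kept for 30 h in culture with erythropoietin (Epo), the hormone that red cell precursors need to survive and mature. The medium of the cholesterol group was supplemented with 40 µM cholesterol and that of the control group was not (labelled untreated, and called vehicle by the study). According to the study's methods, cells that had become TER119+ were stained with antibody and sorted before RNA was extracted with TRIzol. Polyadenylated RNA of 3 control samples (C1 to C3) and 3 cholesterol samples (CHO1 to CHO3) was sequenced. No transgene or deletion is named for any sample, and the sources do not say whether the numbers mark separate cultures, litters or days.

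Immediate early genes are transcribed within minutes of a growth factor, cytokine or stress signal without need of newly made protein, and their transcripts decay quickly. Kinases of the MAPK pathways and the transcription factors SRF and CREB switch them on. The Fos and Jun proteins pair through leucine zippers to form AP-1, which binds DNA, and Egr1, Atf3 and Klf6 are further transcription factors of the response. Handling, dissociation and sorting of cells are also known to induce many of them.

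RefSeq promoter windows of GRCm38.p6, from 250 bases before to 50 bases after the transcription start, were at hand for 8 of the 10 genes, and Egr1 and Ier2 have no entry in the table. The window given for Jund lies upstream of the gene as GENCODE gives it, and those of Dusp1 and Atf3 lie inside longer GENCODE spans. The windows of Fos and Junb are shown because both genes were lower with cholesterol in every same-numbered pair and were lowest in the samples numbered 3. That of Dusp1 is shown as the member with the most TGACG matches, and Dusp1 was highest in the samples numbered 3. Capitals mark matches on either strand to the core of the cyclic AMP response element, TGACG, which CREB and ATF proteins bind. They also mark TATAAA, the letters of a TATA box. The Fos window is chr12:85473640-85473939 on the plus strand, the Junb window chr8:84978699-84978998 on the minus strand and the Dusp1 window chr17:26508423-26508722 on the minus strand.
Fos: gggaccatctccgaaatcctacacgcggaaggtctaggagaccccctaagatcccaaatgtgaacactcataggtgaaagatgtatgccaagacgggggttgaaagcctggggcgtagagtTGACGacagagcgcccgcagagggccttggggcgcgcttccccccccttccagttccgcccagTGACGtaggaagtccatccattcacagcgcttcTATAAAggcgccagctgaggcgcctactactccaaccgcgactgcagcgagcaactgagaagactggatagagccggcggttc
Junb: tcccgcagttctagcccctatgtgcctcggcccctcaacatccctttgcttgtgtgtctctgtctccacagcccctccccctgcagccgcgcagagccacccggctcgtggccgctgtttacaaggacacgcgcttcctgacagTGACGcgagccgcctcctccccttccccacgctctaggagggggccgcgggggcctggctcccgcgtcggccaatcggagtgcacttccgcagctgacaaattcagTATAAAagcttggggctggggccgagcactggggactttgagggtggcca
Dusp1: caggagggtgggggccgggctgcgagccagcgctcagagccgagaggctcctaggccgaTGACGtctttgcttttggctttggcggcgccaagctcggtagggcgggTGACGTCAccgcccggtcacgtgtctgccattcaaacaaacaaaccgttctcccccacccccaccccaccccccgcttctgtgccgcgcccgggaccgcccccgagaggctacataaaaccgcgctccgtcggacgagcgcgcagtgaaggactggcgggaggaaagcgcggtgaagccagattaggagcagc

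TGACG was present in 5 of the 8 windows (Fos, Fosb, Junb, Atf3 and Dusp1), and in 20.8% of the 32851 mouse promoter windows of the same length. In Fos the matches began at −129 and −66 from the start, with TATAAA at −33. Dusp1 held matches that began at −191, −143 and −140, and the last pair overlaps as the palindrome TGACGTCA. TATAAA stood in 2 of the 8 windows (13.6% of all windows), in Junb from position 1 at the RefSeq start, which lies upstream of the start that GENCODE gives, and GGGCGG, the GC box bound by Sp1, in 6 (35.7%). TGANTCA, a form of the AP-1 site, was in none of the 8 (7.81% of all windows), and neither was the CArG box bound by SRF (1.63%). The windows of Jun and Klf6 hold the longer form TGACATCA, which neither TGANTCA nor TGACG matches. Letters more than 250 bases before the start, and the promoters of Egr1 and Ier2, were not searched. Absence from these windows therefore does not show that the genes lack AP-1 or SRF sites. Motifs were searched on both strands, and these matches describe the letters of the windows only. A relation of these motifs to the levels described below was not tested.

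The libraries held 19826849 to 20061724 estimated counts, so that 3 counts corresponded to about 0.15 CPM (read counts scaled to a common library size, after TMM). Every member exceeded that level in each library, with 26 to 12981 counts per gene and library, and all 10 were among the 11277 genes that passed the filter on low counts. The erythroid markers checked the labelled cell type, and all 10 were detected and summed to 113900 to 169400 CPM. Abcg1, a cholesterol exporter induced by sterol-activated nuclear receptors, checked the treatment label. It measured 6.93, 4.36 and 6.38 CPM in C1 to C3 and 101, 93.9 and 99.0 CPM in CHO1 to CHO3 (log2 fold change 4.05, standard error 0.18, adjusted p = 0.00292 in edgeR's quasi-likelihood test).

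Per transcript length, Jund and Egr1 were the most abundant members in control samples, with 145 ± 54.7 and 144 ± 70.2 FPKM (counts scaled to transcript length and library size, mean ± SD, n = 3). Dusp1 followed with 107 ± 12.9 FPKM, Fos with 82.2 ± 12.4, Ier2 with 64.1 ± 20.6 and Jun with 54.2 ± 8.13. Fosb stood at 45.6 ± 2.10 FPKM, Junb at 39.7 ± 8.24, Klf6 at 14.5 ± 2.35 and Atf3 at 1.79 ± 1.37. In this order the control ranges of neighbours overlapped, so that their order was not resolved, for Jund and Egr1, Egr1 and Dusp1, Fos and Ier2, Ier2 and Jun, and Fosb and Junb. The ranges did not overlap for Dusp1 and Fos, Jun and Fosb, Junb and Klf6, or Klf6 and Atf3. Averaged over the 6 libraries, Jund ranked 507th and Egr1 689th of the 11277 genes tested, whereas Atf3 ranked 8455th. All members but Klf6 and Atf3 lay above at least 81.0% of the genes tested.

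With cholesterol all 10 members were lower on average, with a median log2 fold change of −0.40, against 0.01 over all genes tested, of which 47.9% were lower. Egr1, Ier2, Fos, Junb and Fosb differed most, and were 26.3% to 51.6% lower by the fold changes fitted with treatment alone. Jun, Jund and Dusp1 were 6.97% to 8.75% lower in that fit. Since the direction was in view when the genes were chosen, these counts carry no test. In bulk RNA, fewer cells of a type and less RNA per cell cannot be told apart.

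Fos, the first-described partner of Jun in AP-1, lies at chr12:85473890-85477273 on the plus strand and has 4 exons. It measured 199, 179 and 151 CPM in C1 to C3 and 131, 134 and 80.8 CPM in CHO1 to CHO3. All 3 control values lay above all 3 cholesterol values, and the sample numbered 3 was the lowest of its group in both groups. The log2 fold change was −0.61 (standard error 0.21), and −0.63 (standard error 0.10) when same-numbered samples were compared as pairs. It lay between −0.74 and −0.41 when single libraries were left out.

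Fosb, a Fos paralog that also pairs with Jun proteins, lies at chr7:19302696-19310051 on the minus strand. It measured 184, 163 and 184 CPM in C1 to C3 and 122, 142 and 128 CPM in CHO1 to CHO3. The groups did not overlap here either, and the numbers made little difference. Treatment accounted for 86.8% of the variation of Fosb over the 6 libraries and replicate number for 0.42%, whereas the medians over all genes tested were 8.38% and 72.6%. The log2 fold change was −0.44, with a standard error of 0.08 without and 0.07 with the pairs.

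Among the Jun genes, Junb differed most with cholesterol over the 6 libraries. Without cholesterol sample 3 Jund did, with a log2 fold change of −0.44 against −0.34 for Junb. Junb, which can restrain proliferation as an AP-1 partner, measured 89.4, 74.6 and 59.9 CPM in C1 to C3 and 66.3, 51.7 and 41.9 CPM in CHO1 to CHO3. The groups overlapped, but each cholesterol value lay below the control value of the same number by a nearly equal step, of −0.43, −0.53 and −0.51 on the log2 scale in pairs 1 to 3. The standard error of the log2 fold change of −0.49 was 0.21 without the pairs and 0.05 with them, and the fold change lay between −0.67 and −0.33 when single libraries were left out. Junb is a gene of 1 exon at chr8:84974484-84978718 on the minus strand. This annotated span overlaps 351 bases of Prdx2 on the opposite strand, which had 1780 to 1990 CPM. The length implied by count and FPKM for Junb, 1861 bases, is shorter than the span. Whether the counted transcript reaches the overlap is therefore not known, and no source states whether counting used strand.

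Jun, the founding member of its family, measured 210, 159 and 167 CPM in C1 to C3 and 175, 160 and 154 CPM in CHO1 to CHO3. The groups overlapped, sample 1 was the highest of each group, and pair 2 was nearly equal (0.01 on the log2 scale). Jund, the family member that is made constitutively in many cells, measured 348, 318 and 634 CPM in C1 to C3 and 310, 328 and 556 CPM in CHO1 to CHO3. The sample numbered 3 was far above the others in both groups, and replicate number accounted for 96.7% of the variation. The log2 fold changes were −0.13 (standard error 0.12) for Jun and −0.12 (standard error 0.34) for Jund. Both are genes of 1 exon, at chr4:95049034-95052222 on the minus strand and chr8:70698949-70700616 on the plus strand, and both overlap an annotated antisense RNA that is no row of the table. The length implied by count and FPKM for Jund, 2932 bases, is longer than this GENCODE gene, so its FPKM rest on a longer transcript.

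The make-up of the AP-1 transcripts shifted accordingly between the numbers. Of the summed FPKM of Fos, Fosb, Jun, Junb and Jund, Jund made up 31.9%, 33.4% and 51.6% in C1 to C3 and 36.6%, 38.7% and 57.3% in CHO1 to CHO3. The share of Fos and Fosb was 38.0%, 39.1% and 28.5% in control samples and 32.4%, 34.7% and 21.6% in cholesterol samples. In each pair the share of Jund was larger, and that of Fos and Fosb smaller, with cholesterol. The summed level of the 5 genes was 330 to 403 FPKM in control samples and 295 to 326 FPKM in cholesterol samples.

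**Figure D1:**
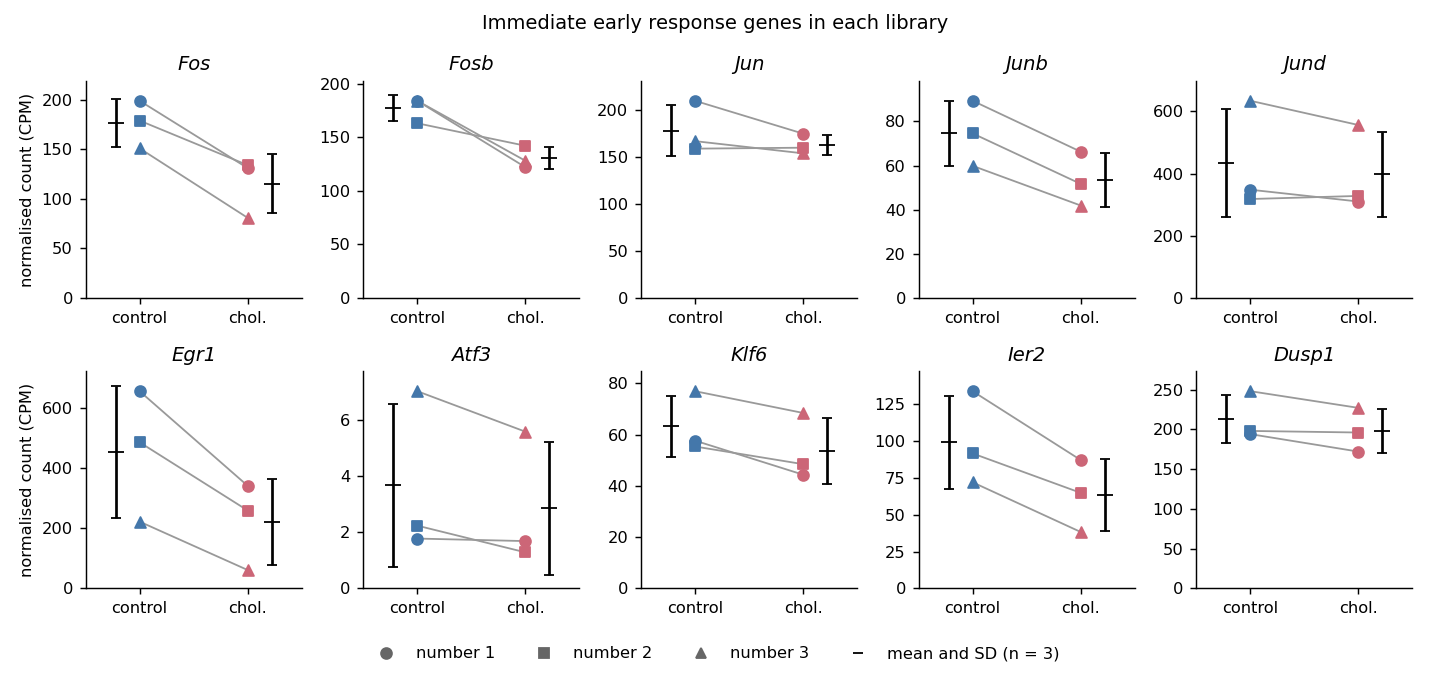
Normalised count (CPM, linear axis from 0) of each of the 10 genes in the 3 control (blue) and 3 cholesterol (red) libraries, with grey lines joining samples of the same number and black bars giving the mean and SD of each group (n = 3). Fos and Fosb are the genes whose groups do not overlap, and Egr1 spans 60.9 to 656 CPM.

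Egr1, a zinc finger factor induced through SRF and its partners, varied most in absolute terms. It measured 656, 486 and 222 CPM in C1 to C3 and 341, 259 and 60.9 CPM in CHO1 to CHO3. Within each group the sample numbered 3 was the lowest and the sample numbered 1 the highest, so that control sample 3 lay below cholesterol samples 1 and 2. The difference was −0.95 and −0.91 on the log2 scale in pairs 1 and 2 and −1.86 in pair 3. The log2 fold change of −1.05 had a standard error of 0.66 (−1.20, standard error 0.29, with the pairs) and lay between −1.51 and −0.60 when single libraries were left out. Egr1 lies at chr18:34859823-34864984 on the plus strand.

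Atf3, a CREB family factor induced by many stresses, was scarce, with 26 to 135 counts per library. It measured 1.77, 2.23 and 7.01 CPM in C1 to C3 and 1.68, 1.28 and 5.57 CPM in CHO1 to CHO3. Sample 3 was the highest of each group, and the groups overlapped throughout. Its log2 fold change of −0.37 (standard error 0.75) became 0.51 when control sample 3 was left out and −1.30 when cholesterol sample 3 was left out. Atf3 lies at chr1:191170296-191218039 on the minus strand.

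Klf6, a zinc finger factor with growth-restraining roles, measured 57.7, 55.4 and 77.0 CPM in C1 to C3 and 44.4, 48.5 and 68.5 CPM in CHO1 to CHO3. Sample 3 was again the highest of each group, and each cholesterol sample lay below its control. The log2 fold change was −0.24, with a standard error of 0.20 without the pairs and 0.05 with them. Leaving out single libraries gave −0.44 to −0.07. Klf6 lies at chr13:5861482-5870394 on the plus strand and has 4 exons.

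Ier2, a small nuclear protein of the growth factor response, measured 134, 91.7 and 72.1 CPM in C1 to C3 and 87.2, 64.9 and 38.3 CPM in CHO1 to CHO3. It followed the distribution of Egr1 and Junb, with sample 1 the highest and sample 3 the lowest of both groups. The log2 fold change was −0.64 (standard error 0.35) without the pairs and −0.66 (standard error 0.07) with them, and ran from −0.94 to −0.36 without single libraries. Ier2 has 1 exon, at chr8:84661331-84662852 on the minus strand.

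Dusp1, a phosphatase that switches MAP kinases off and so ends the response, measured 194, 198 and 248 CPM in C1 to C3 and 172, 196 and 227 CPM in CHO1 to CHO3. The groups overlapped, and pair 2 was nearly equal (−0.01 on the log2 scale). Its log2 fold change of −0.10 (standard error 0.14) was the smallest of the 10, and turned to 0.02 without control sample 3. Dusp1 spans chr17:26505590-26562128 on the minus strand in GENCODE. That span overlaps 640 bases of Ergic1 on the opposite strand, a gene with 12.8 to 20.7 CPM. The promoter window shown lies inside the span, and the length implied by count and FPKM is 1966 bases. Whether the counted transcript reaches Ergic1 is not known. Jund likewise changed direction without control sample 3 or without cholesterol sample 1, and Jun was at 0.005 without control sample 1.

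**Figure D2:**
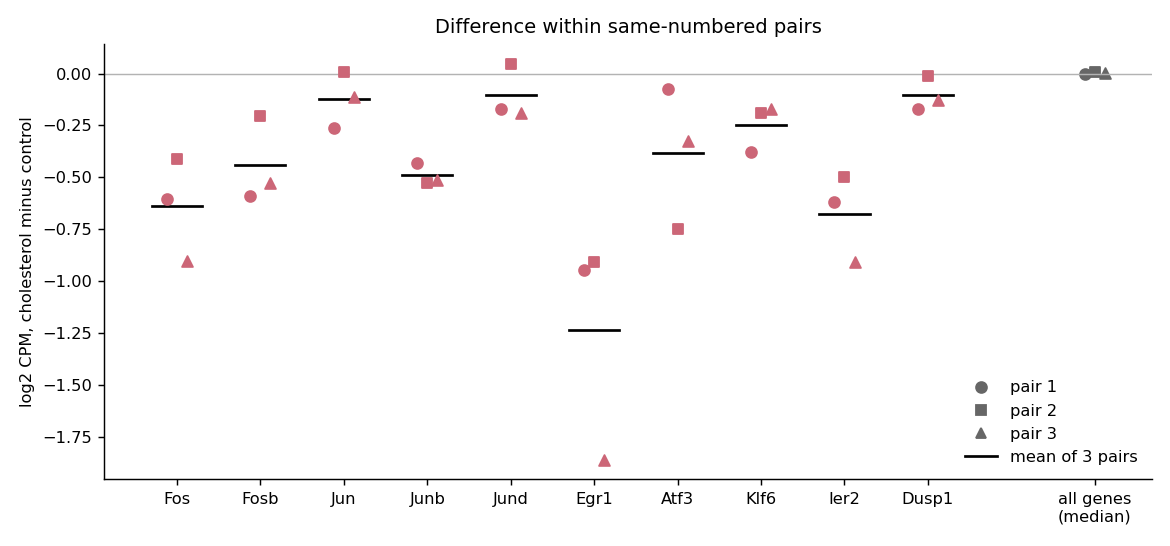
Difference in log2 CPM, cholesterol minus control, within same-numbered pairs 1 (circles), 2 (squares) and 3 (triangles) for each gene, with the mean of the 3 pairs as a bar and the median over all genes tested at the right in grey. For 8 of the 10 genes all 3 pairs lie below 0, and Jun and Jund have pair 2 at or just above it.

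In the fit with treatment alone, edgeR's quasi-likelihood test called 0 of the 10 genes at an adjusted p under 0.05, and over all genes it called 0% lower. At an unadjusted p under 0.05 there were 2 members, where 1.92% of all genes were lower, and DESeq2 called 1, where it called 0.232% lower. With the replicate number as a block, which compares same-numbered samples, 5 of the 10 were called lower, namely Fos, Fosb, Junb, Klf6 and Ier2, where 5.2% of all genes tested were called lower. Groups did not overlap for 2 members, where 4.28% of all genes were lower without overlap. All 3 pairs were lower for 8 members, against 20.1% of all genes. Because this contrast was used to choose the members, these shares are printed for orientation and nothing is read from them.

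The 10 genes differed in direction between the sample numbers. Fos, Jun, Junb, Egr1 and Ier2 were lower in sample 3 than in sample 1 of both groups, by 0.18 (Jun with cholesterol) to 2.48 (Egr1 with cholesterol) on the log2 scale. Jund, Atf3, Klf6 and Dusp1 were higher in sample 3 than in sample 1 of both groups, by 0.36 (Dusp1 in control) to 1.93 (Atf3 in control). Fosb differed by 0.01 and 0.07. Replicate number was called for 8 of the 10 genes, all but Fosb and Egr1, in a background of 46.3% of all genes tested. As with treatment, that pattern was in view when the genes were chosen.

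**Figure D3:**
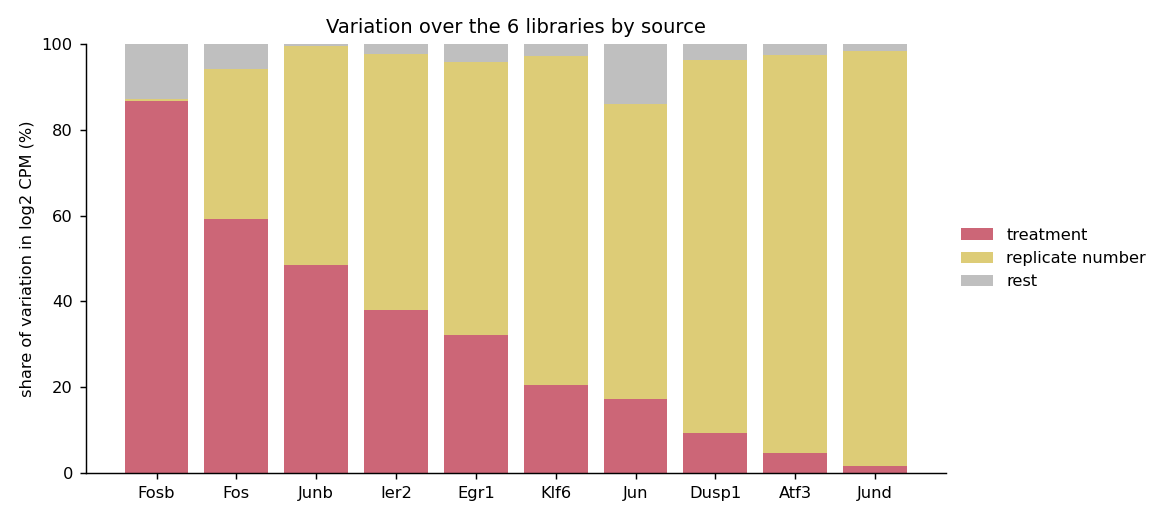
Share of the variation in log2 CPM over the 6 libraries (percent of the sum of squares) that goes with treatment (red), with replicate number (yellow) and with neither (grey), for each gene. Fosb has the largest share by treatment, 86.8%, and Jund the largest share by replicate number, 96.7%.

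Pearson correlations over the 6 libraries, given as a description since the libraries share treatment and number, followed the same division. They were 0.981 for Junb and Ier2, 0.970 for Egr1 and Ier2 and 0.951 for Fos and Egr1, while Jund went with Atf3 at 0.956 and Klf6 with Dusp1 at 0.955. Jund and Egr1 had a correlation of −0.68. The ratio of Egr1 to Fos in FPKM was 2.23, 1.84 and 0.995 in C1 to C3 and 1.77, 1.31 and 0.511 in CHO1 to CHO3, and was thus lower with cholesterol in each pair. The ratio of Fosb to Fos was 0.510, 0.504 and 0.678 in control samples and 0.513, 0.581 and 0.876 in cholesterol samples.

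The genes whose log2 CPM most resembled the mean of the standardized members over the 6 libraries were Ankrd23, Odc1, Cox6b2, Arpc5, Npc2, Apeh, Cdipt, Abhd6, Slc9a3r1 and Faap24, with Pearson correlations of 0.971 to 0.995. The members' own correlations with that mean ran from 0.281 (Jund) to 0.948 (Fosb), so that it describes some of them poorly. They were picked for following a profile that itself differs with treatment, so their own treatment difference is not tested.

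Markers of other blood cells differed with treatment and with number, in cells that the study's methods describe as sorted for TER119. The neutrophil markers Elane, Mpo and Prtn3 and 7 others summed to 72.6, 270 and 728 CPM in C1 to C3 and to 44.0, 116 and 304 CPM in CHO1 to CHO3, and 9 of the 10 were called lower with the block, against 5.2% of all genes. The macrophage markers, among them Adgre1, Csf1r and C1qa, summed to 30.2, 90.4 and 297 CPM in control samples and to 20.1, 38.7 and 107 CPM in cholesterol samples, with 5 of 9 tested called lower. Mast cell or basophil markers such as Cpa3, Mcpt8 and Prss34 summed to 9.40 to 44.2 CPM in control and 3.65 to 8.03 CPM in cholesterol samples. With the block 4 of 4 tested were called lower, with a median log2 fold change of −2.06 in that fit. The list includes Gata2, also a gene of early progenitors, which made up most of its sum in C1 and CHO1. With treatment alone, edgeR called 0 genes of these 3 lists, DESeq2 called 1 mast cell or basophil marker and 0 of the others, and an unadjusted p under 0.05 in edgeR was reached by 3 mast cell or basophil markers and 0 of the others. Prss34 was at 0 in control sample 1 and Mcpt8 in cholesterol sample 1. All 23 tested markers of these 3 lists were lower on average with cholesterol and higher in sample 3 than in sample 1 of both groups. Over all genes tested, 47.9% were lower on average, and 4550 of 11277 were higher in sample 3 in this way.

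With treatment the members thus lay on the same side of 0 as these markers on average, though Jun, Jund, Atf3 and Dusp1 changed direction when 1 library was left out. Between the numbers Jund, Atf3, Klf6 and Dusp1 went the same way as the markers, whereas Fos, Jun, Junb, Egr1 and Ier2 were lower where the markers were higher. Egr1 was at 656 CPM in C1 and 222 CPM in C3, where the 23 markers together were at 112 and 1067 CPM. The part of these cells in the treatment difference of the members was not tested.

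**Figure D4:**
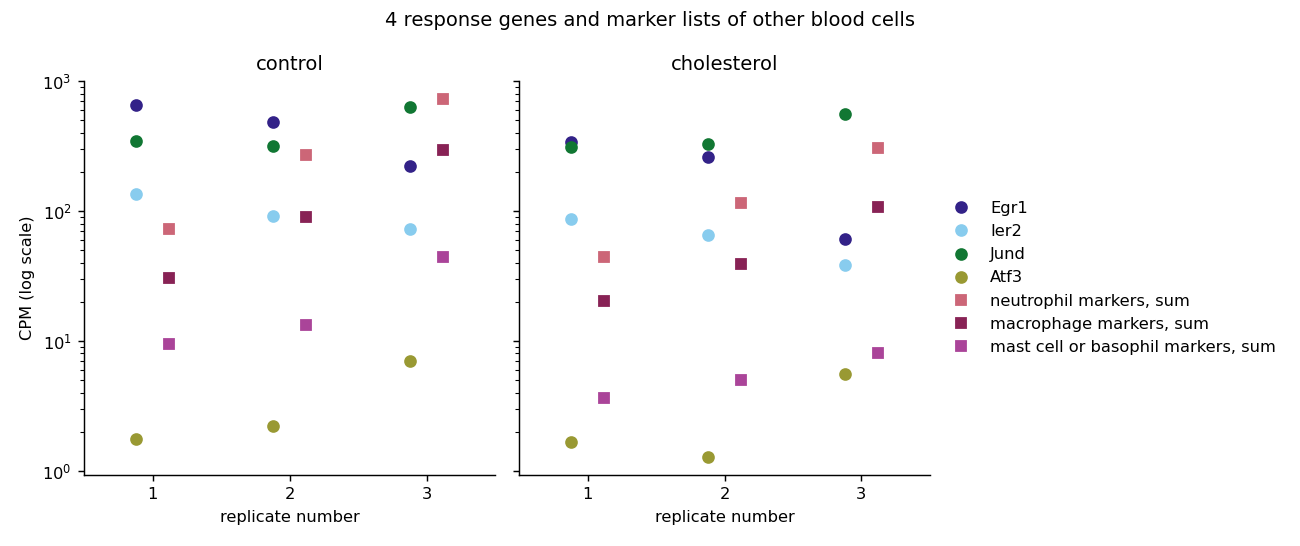
CPM (log axis) of Egr1, Ier2, Jund and Atf3 (circles) and summed CPM of neutrophil, macrophage and mast cell or basophil markers (squares) in samples 1 to 3 of the control (left) and cholesterol (right) groups. The 3 marker sums are highest in sample 3 of both groups, where Egr1 and Ier2 are lowest and Jund and Atf3 highest.

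Other marker lists stood as follows. Hepatocyte markers, among them Alb, Afp and Apoa1, summed to 152, 125 and 363 CPM in C1 to C3 and 264, 87.6 and 306 CPM in CHO1 to CHO3, with 0 of 7 called by edgeR with or without the block or by DESeq2, and 0 at an unadjusted p under 0.05 without the block. Megakaryocyte markers such as Pf4, Itga2b and Gp9 summed to 78.1 to 96.2 CPM, and 1 of 7, Itga2b, was called lower with the block. Endothelial (Pecam1, Cdh5, Kdr) and B lymphoid (Cd79a, Cd79b) markers reached at most 6.07 and 4.67 CPM in sum, and Cdh5 and Cd79a were at 0 in 1 or more libraries. All 10 erythroid markers were lower on average with cholesterol and in all 3 pairs, against 20.1% of all genes in all 3 pairs, with a median log2 fold change of −0.12. With the block 3 were called lower, against 5.2% of all genes, Klf1 and Gata1 not among them. The markers of the labelled cell type thus lay on the same side of 0 as the members.

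Other immediate early genes, 44 of which were in the table and 40 tested, were lower with cholesterol for 36 of the 40, with a median log2 fold change of −0.31. In the fit with treatment alone 0 were called, 6 had an unadjusted p under 0.05 and DESeq2 called 0. With the block 8 were called lower and 0 higher, against 5.2% of all genes lower. These were Rgs1 and Rgs2, which dampen G protein signalling, the nuclear receptor Nr4a1, the repressor Nfil3, Egr3, Trib1, Btg2 and Klf10. The count was 9, 3 and 5 lower when both samples numbered 1, 2 or 3 were left out, with 1 gene called higher in the last case, and 2 lower by DESeq2 with the block.

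Most of these called genes were scarce. Egr3, a paralog of Egr1, measured 0.101, 0.594 and 3.17 CPM in C1 to C3 and 0.0986, 0.198 and 0.562 CPM in CHO1 to CHO3 (log2 fold change with the block −2.01, standard error 0.47, adjusted p = 0.0124 in edgeR). Unlike Egr1 it was highest in samples 3, as were the myeloid markers. Rgs2 ranged from 0.542 to 12.9 CPM and Nr4a1 from 0.296 to 3.11 CPM, also with their highest value in control sample 3. Of the 28 genes with a mean under 10 FPKM, 21 were higher in sample 3 than in sample 1 of both groups, and their median log2 fold change with the block was −0.50. Of the 12 genes at 10 FPKM or more, 4 were higher in this way, and the median was −0.05. Over all 11277 genes tested, 4550 were higher in this way. The part of the myeloid cells in these differences was not tested.

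Of the 12 genes at 10 FPKM or more, Btg2 and Klf10 were called lower with the block. Btg2, an antiproliferative gene, measured 273, 277 and 269 CPM in C1 to C3 and 250, 253 and 236 CPM in CHO1 to CHO3 (log2 fold change −0.15, standard error 0.04, adjusted p = 0.0354 in edgeR with the block). Here the groups did not overlap. Klf10, a TGF-beta induced paralog of Klf6, measured 51.3 to 60.6 CPM in control and 47.5 to 49.4 CPM in cholesterol samples (log2 fold change −0.20, standard error 0.06, adjusted p = 0.0377 in edgeR with the block). Zfp36, which speeds the decay of early response transcripts and was singled out after its values were seen, measured 53.9, 45.8 and 71.9 CPM in C1 to C3 and 37.3, 36.6 and 36.8 CPM in CHO1 to CHO3. Its groups did not overlap, but it did not pass the test (log2 fold change with the block −0.61, standard error 0.14, adjusted p = 0.12 in edgeR). The most abundant genes, Ppp1r15a (266 FPKM), which reverses the integrated stress response, and Gadd45a (205 FPKM), did not pass the test, with log2 fold changes of 0.03 (standard error 0.04) and −0.05 (standard error 0.06) with the block.

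**Figure D5:**
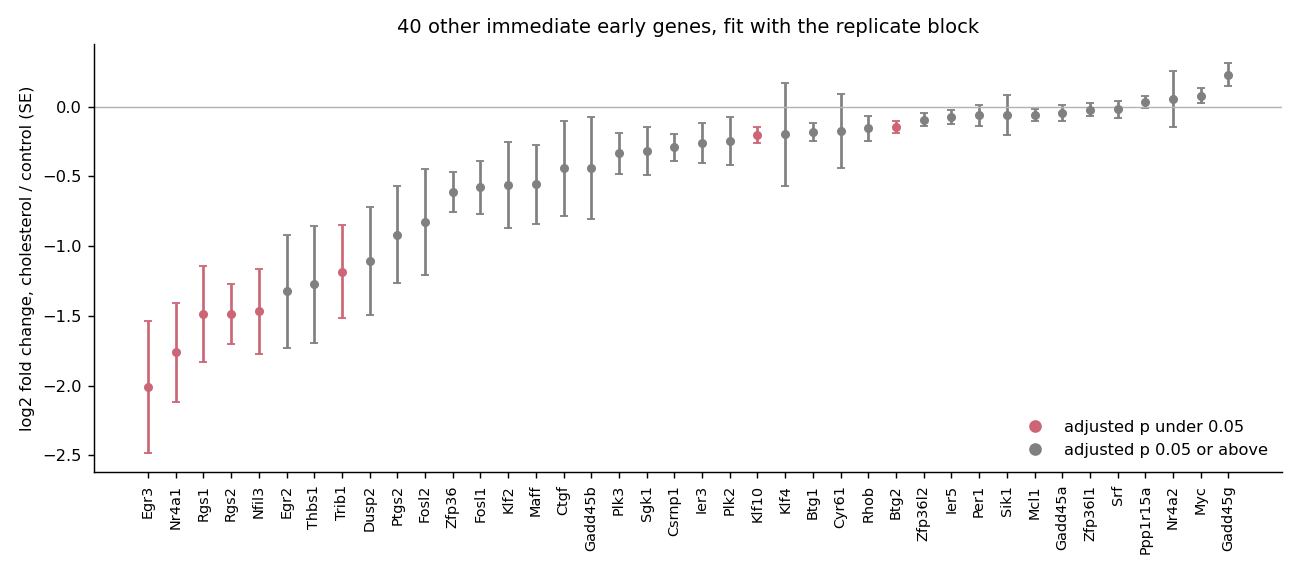
Log2 fold change, cholesterol over control, with its standard error from the edgeR fit with the replicate block for 40 other immediate early genes in order of fold change, with genes at an adjusted p under 0.05 in red. The 8 called genes all lie below 0, and the 6 of them with the largest change have means under 10 FPKM.

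Upstream of the members, kinases and transcription factors of the MAPK and SRF pathways were mostly not called. Of 30 tested, 1 was called lower with the block, Mapkapk3 (log2 fold change −0.41, standard error 0.10, adjusted p = 0.0126 in edgeR), a kinase downstream of p38. The abundant Map2k3 had a log2 fold change of −0.11 with a standard error of 0.04 and did not pass. The list's median was −0.04. With treatment alone, edgeR called 0 genes of this list and of the lists that follow, 1 gene of this list and 2 heat shock genes had an unadjusted p under 0.05, and DESeq2 called Hspa1b. Of 11 tested MAPK feedback genes 1 was called lower, Dusp5, which ranged from 0.404 to 4.98 CPM in control and from 0.246 to 1.07 CPM in cholesterol samples (log2 fold change −1.92, standard error 0.37, adjusted p = 0.00281 in edgeR with the block). Dusp8 and Spry1, the most abundant, were not called.

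Of the 22 tested bZIP genes whose proteins can pair with AP-1 proteins or bind related sites, 2 were called lower with the block. These were Maf (log2 fold change −1.19, standard error 0.22, adjusted p = 0.00281 in edgeR), which was highest in samples 3 like the macrophage markers, and Nfe2 (−0.15, standard error 0.04, adjusted p = 0.0373), an erythroid factor of 332 to 417 CPM. Atf4, a relative of Atf3, had 744 to 904 CPM and did not pass (log2 fold change −0.14, standard error 0.04, adjusted p = 0.0632). Of the 17 tested targets of the integrated stress response, including the abundant Asns and Slc3a2, 0 were called in either edgeR fit or by DESeq2, and 0 had an unadjusted p under 0.05 with treatment alone.

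Heat shock genes, which respond to handling and to protein damage, differed between the numbers. Summed over the list they were at 8985, 8105 and 5917 CPM in C1 to C3 and 8516, 7936 and 5845 CPM in CHO1 to CHO3, with the lowest sums in the samples in which Egr1, Fos, Junb and Ier2 were lowest. Hspa8, Hsp90ab1 and Hsp90aa1 carried most of the sum, with 4030, 1770 and 1490 CPM in C1. Of the 17 tested genes, 10 were lower and 5 higher in sample 3 than in sample 1 of both groups, and the inducible Hspa1a and Hspa1b were among the 5. Over all 11277 genes tested, 4704 were lower and 4550 higher in this way. Replicate number was called for 13 of the 17, against 46.3% of all genes tested. The abundant Hspa8 and Hsp90ab1 had log2 fold changes of −0.07 and 0.01 with the block and were not called. With the block 1 was called lower, Hspa1b, an inducible chaperone. It measured 7.48, 10.5 and 9.29 CPM in C1 to C3 and 2.56, 4.94 and 3.63 CPM in CHO1 to CHO3 (log2 fold change −1.31, standard error 0.14, adjusted p = 6.09e-06 in edgeR with the block). The near-identical copy Hspa1a may share its reads.

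Of 14 tested NF-kB response genes, Ccl3, Il1b, Nfkbiz and Ccl4 were called lower with the block and Nfkbia was called higher. Over all genes tested, 5.2% were called lower and 186 of 11277 higher in that fit. Ccl3, a chemokine, ranged from 1.06 to 20.3 CPM in control and from 0.542 to 3.83 CPM in cholesterol samples and was highest in samples 3. Nfkbia, the inhibitor that NF-kB itself induces, measured 4.45, 6.29 and 23.5 CPM in C1 to C3 and 6.51, 9.63 and 31.9 CPM in CHO1 to CHO3 (log2 fold change 0.51, standard error 0.09, adjusted p = 0.00158 in edgeR with the block). It thus shared the distribution of Jund, Atf3, Klf6 and Dusp1 over the numbers but lay on the opposite side of 0 with cholesterol. Nfkbib and Nfkb2, the most abundant of the list, were not called.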

How the data were processed

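The authors deposited expected counts per gene, estimated counts that need not be whole (27.9% to 29.5% of the values in a library were not), and a normalized value with no unit named. The deposited normalized values were taken as FPKM. The lengths implied by count and value differed between samples by a median of 0.873% over 6785 genes. That shows scaling by length but does not by itself tell FPKM from a similar unit. The submitters' processing notes name HISAT2 2.0.4, Bowtie2 2.2.5, RSEM 1.2.12, DESeq2 1.4.5 and GRCm38.p6. Their parameters, the annotation, filters and the use of strand are not given in the sources used here.

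Counts were rounded and tested with edgeR 4.0.16 in R 4.3.3 (filterByExpr with at least 10 counts, TMM, robust quasi-likelihood test, Benjamini-Hochberg adjustment over 11277 genes). Treatment alone was the main model, and the replicate number was added as a block. CPM are TMM-scaled counts, and log2 CPM carry a prior count of 2. Standard errors come from the F statistic. Alternatives were DESeq2 1.42.0, limma 3.58.1 on log2(FPKM + 1) or log2(FPKM + 0.1), other filters and scalings, and each sample left out. Positions are from GENCODE for GRCm38, and promoters from RefSeq. The edgeR fits, but not the alternatives, were also tried on simulated counts, and the outcome is not given here.

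Numbers 1 to 3 in the labels gave the pairing. Deviations from the group mean of same-numbered samples correlated at 0.729, 0.348 and 0.825, so the numbers were taken to pair the samples. Unlike numbers correlated at −0.795 to 0.346, and CHO2 was as close to C1 (0.346) as to C2 (0.348), so pair 2 is the least distinct. The labels do not name separate cultures or animals. The legend of the figure that shows these data speaks of independent experiments without saying whether it means these samples. If they are not separate cultures, p-values measure the spread between these samples only. No 2 libraries were copies (chi-square per degree of freedom at least 8.50).

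The members and all lists were chosen with earlier results of these data known. Named genes were the 10 members, up to 6 called genes and the 2 most abundant of each other list, the 10 genes most like the members' mean, up to 3 defining markers of each cell type, and Abcg1. Trib1, Klf10, Zfp36, Hspa1a, Hsp90aa1, Prdx2 and Ergic1 lie outside this rule and were named after values were seen. A few genes that this rule would name are not reported here.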

Additional observations from a re-analysis of the deposited data

How the results depend on the processing

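With treatment alone, 1 gene of the whole table was called (Abcg1) and 0 lower, while 216 genes were lower at an unadjusted p under 0.05. DESeq2 called 28, and leaving out single libraries gave 1 to 8, the 8 without control sample 3. With the replicate block 772 genes were called, 586 of them lower, and by DESeq2 with the block, chosen after the data were seen, 280. Without both samples numbered 1, 2 or 3, settings also added after the data were seen, the blocked fit called 821, 296 and 726 genes. The members called, a count that carries no weight because they were chosen on this contrast, were 0 with treatment alone (0 also without any single library), 1 by DESeq2 (Fosb), 5 with the block by edgeR and by DESeq2, and 4, 5 and 6 without the numbers 1, 2 and 3. Of the other immediate early genes, 0 were called with treatment alone and 8 with the block, or 9, 3 and 6 without the numbers 1, 2 and 3 and 2 by DESeq2 with the block. The cause of these shifts was not tested, but the block removes the spread between numbers, and leaving out samples lowers their number.

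The median log2 fold change of the members was −0.40, with −0.30 by limma on log2(FPKM + 1) and −0.49 to −0.29 without single libraries. Leaving out 1 library turned the direction of Jun, Jund, Atf3 and Dusp1, as given above, and no setting tried did so for Fos, Fosb, Junb, Egr1, Klf6 or Ier2. Replicate number was called for 5220 genes by edgeR and 3001 by DESeq2's likelihood ratio test. Atf3 had 26 to 135 counts per library, and every other member at least 750.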

Other observations

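Genes of early blood progenitors were not described as a list above, though Gata2 was counted there among the mast cell or basophil markers. Of 10 tested, 5 were called lower with the block, against 5.2% of all genes tested. With treatment alone 0 were called. An unadjusted p under 0.05 was reached by 3, where 1.92% of all genes were lower, and DESeq2 called 1, where it called 0.232% lower. Gata2 measured 6.22, 5.60 and 12.3 CPM in C1 to C3 and 2.37, 2.57 and 2.76 CPM in CHO1 to CHO3 (log2 fold change −1.59, standard error 0.19, adjusted p = 6.97e-05 in edgeR with the block). Gata2 is also expressed in mast cells and basophils and was itself one of their markers above, so both lists share its values. Kit, the stem cell factor receptor, differed by −1.02 on the log2 scale (standard error 0.27, edgeR with the block, adjusted p = 0.0255), and Spi1, Cd34 and Cd44 were called lower as well. Tal1 and Lmo2, the most abundant of the list and both used by erythroid cells, were not called, with log2 fold changes of 0.06 (standard error 0.05) and −0.08 (standard error 0.05).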
